A study of Oryza sativa with 17 samples.

Results

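The genes described here had at least 20 FPKM (sequenced fragments relative to transcript length and to the size of the library) in both control libraries of red rice (RR) at 15 days after flowering (DAF) and fewer than 5 FPKM in all 3 control libraries at 20 DAF. The 100 genes with the highest mean in black rice (BR) control grains were left out first. Of 32657 genes in the table, 2065 reached 20 FPKM in both controls at 15 DAF, 40 of these met the lower limit as well, and 38 remained. The 38 genes were thus chosen by their FPKM in the RR controls of both stages and in the BR controls, and the drop between the control stages is given as a description only. The libraries open to comparison are those of iron-treated red rice and of black rice.

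Grain RNA was sequenced from Nanheinuo, the BR variety, at 10 DAF and from Yuhongdao 5815, the RR variety, at 15 and 20 DAF, each as a control and after a foliar Fe treatment. Control plants were sprayed with deionized water and Fe plants with FeSO4·7H2O at 0.1% (w/v), the lower of the doses in the study. All solutions, the control included, also held nicotinamide at 0.5% (w/v) and Tween 80 at 0.005% (v/v), and plants were sprayed at the end of booting and again 7 days later. Each group had 3 replicates of 6 pails except the RR control at 15 DAF, which had 2 (replicates 2 and 3), so 17 libraries were used. The labels say only Fe and give no day for BR, so the dose and the day of BR were taken from the study's methods. BR and RR were sampled on different days, and variety and day cannot be told apart.

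During grain filling, cells of the rice starchy endosperm make starch and storage proteins, and these cells die as the grain ripens. The aleurone layer and the embryo stay alive and express genes of maturation and desiccation tolerance. Whole-grain RNA mixes these tissues with the maternal layers around them. A lower level in such RNA can come from fewer cells of a type or from less RNA per cell, and these cannot be told apart here.

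All 38 genes were protein coding, and none was among the 3920 new genes that the authors' assembly added. Only 4 had a short name in the gene table used. ACT2 (LOC4349087, also RAC2) encodes actin, a subunit of the cytoskeleton. OC-V (LOC9266701) belongs to the oryzacystatins, inhibitors of cysteine proteases. ROMT-17 (LOC4345935) encodes a methyltransferase of phenolic compounds. CslF6 (LOC4344719) encodes a synthase of the mixed-linkage glucan of cereal cell walls. The other 34 are given by their LOC number, and their function is not stated in the sources used here. By gene order in that table, no 2 of the 38 were neighbours. The closest pair, LOC4344226 and LOC4344219, had 11 genes between them, and LOC4345960 and ROMT-17 had 26.

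The rule itself set the range of levels at both stages, and those at 20 DAF were low rather than absent. The median of the 38 genes was 33.3 and 37.3 FPKM in the 2 RR controls at 15 DAF, with a range of 20.7 to 94.0 over both libraries. At 20 DAF the medians were 1.95, 1.70 and 1.07 FPKM in the controls, and 12, 9 and 18 of the 38 genes were below 1 FPKM. Those with the highest mean at 15 DAF were LOC4338800 (80.0 and 94.0 FPKM), LOC4338250 (71.8 and 78.5), LOC4327090 (68.3 and 79.0), LOC4329755 (88.6 and 49.4) and ACT2 (72.6 and 46.7). LOC9269295 (35.8 and 77.4), LOC4336465 (46.3 and 52.8), LOC4349999 (34.1 and 63.8), OC-V (53.2 and 42.6) and LOC4338972 (44.1 and 41.9) followed. The spread of the 2 replicates was wide for several of these, so their order is not firm.

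The limits of 20 and 5 FPKM cut through a continuous range. Just inside the upper limit were LOC4327760 (20.7 and 23.9 FPKM), LOC4335859 (20.9 and 27.9) and LOC107275954 (26.5 and 21.2), and just outside it LOC4343749 (23.4 and 19.4), LOC9270515 (19.3 and 33.2) and LOC9272662 (19.0 and 36.2). Just inside the lower limit were OC-V, LOC4340909 and LOC4326651, with highest values at 20 DAF of 4.79, 4.60 and 4.55 FPKM. LOC4336904 (5.02), LOC4348238 (5.06) and PDIL2-3 (LOC4347226, 5.13) were just outside it. The rule on abundance in BR removed LOC4328715 and the starch debranching enzyme gene OsISA1 (LOC4346068), with BR control means of 489 and 376 FPKM. In the RR controls at 15 DAF LOC4328715 had 103 and 180 FPKM and OsISA1 145 and 167, above all of the 38. The highest of the 38 in BR, LOC4338800, ranked at 132 there, followed by LOC4338250 at 153 and LOC4343901 at 186.

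The 3 Fe libraries of RR at 15 DAF did not form one group, and this bears on every comparison that uses them. Over the 19736 tested genes other than the 38, Fe replicate 1 correlated with the RR controls of the same day at 0.969 and 0.945 and with Fe replicates 2 and 3 at 0.848 and 0.880. Fe replicates 2 and 3 correlated with each other at 0.958, and with those controls at 0.829 and 0.884 (replicate 2) and 0.864 and 0.908 (replicate 3). Replicate 2 correlated with the 6 libraries at 20 DAF at 0.864 to 0.928, and replicate 3 at 0.887 to 0.941, whereas replicate 1 did so at 0.771 to 0.815. The ranges of replicates 2 and 3 for the controls of 15 DAF and for the libraries of 20 DAF overlapped. These are correlations across genes, which are not independent replicates. FPKM sums per library lay between 547675 and 679747, 20050 to 23671 genes had a value above 0, and read depth is unknown.

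The 38 genes followed the same division of libraries. In Fe replicate 1 at 15 DAF all 38 were at or above 20 FPKM, with a median of 39.4 and a range of 21.8 to 93.7. In Fe replicates 2 and 3 none reached 20 FPKM. Their medians were 6.54 (1.37 to 19.4) and 4.87 FPKM (1.41 to 14.6), with 14 and 20 genes below 5 FPKM. All 38 were below both controls of the day in each of these 2 libraries. A mean over the 3 Fe replicates would describe none of them, so their FPKM values are given per library. Fitted changes that use this group rest on such a mean all the same.

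**Figure D1:**
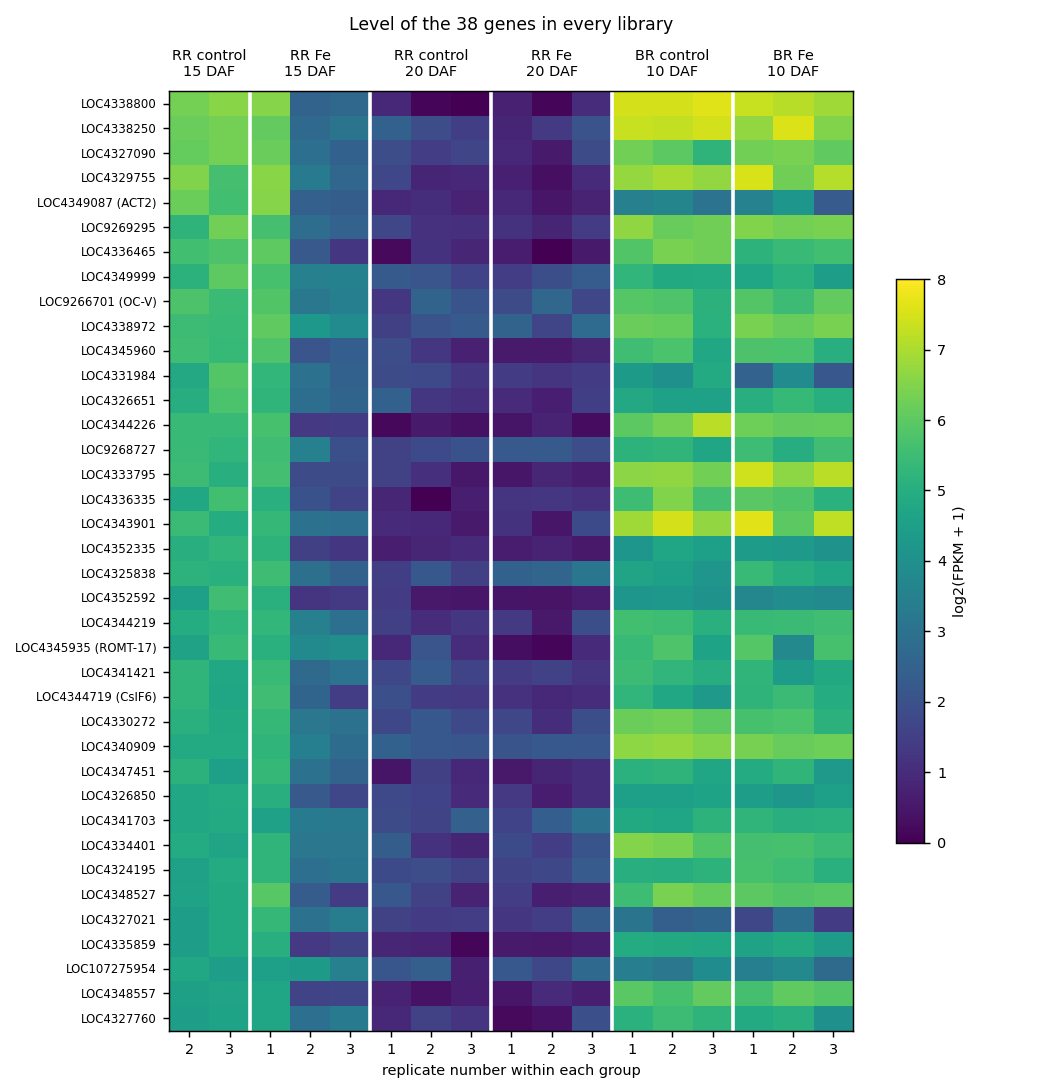
Level of each of the 38 genes (rows, ordered by their mean in the RR controls at 15 DAF) in each of the 17 libraries (columns, by group and replicate number), as log2(FPKM + 1) in colour. RR Fe replicates 2 and 3 at 15 DAF look unlike replicate 1, in which all 38 genes were at 20 FPKM or more, and the 6 BR columns are bright for most genes.

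The position of each Fe library between the control stages was read on the log2(FPKM + 1) scale, where 0% is the mean of the RR controls at 15 DAF and 100% that at 20 DAF. Both ends of this scale are values that the rule used, so a position between them was favoured by the choice and is a description. Fe replicate 1 lay at a median of -6.10% over the 38 genes, with 24 genes above both controls and 2 below both. Fe replicate 2 lay at 64.6%, with a range of 9.68% to 89.6%. Fe replicate 3 lay at 73.0%, with a range of 28.6% to 103%. In FPKM, the median ratio to the control mean at 15 DAF was 1.17 in replicate 1, 0.165 in replicate 2 and 0.105 in replicate 3.

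The level in Fe replicates 2 and 3 stood above that of 20 DAF for most of the genes. Of the 38 genes, 37 in replicate 2 and 33 in replicate 3 lay above all 3 controls at 20 DAF. Those controls had to be below 5 FPKM for a gene to be chosen, so these counts are a description as well. LOC107275954 stayed nearest to its controls in replicate 2, with 21.8, 19.4 and 10.2 FPKM in Fe replicates 1, 2 and 3. LOC4344226 was at 49.8, 1.49 and 1.61 FPKM, and LOC4352592 at 32.6, 1.37 and 1.55. Replicate 2 was above replicate 3 for 24 genes and below it for 14, so the 2 libraries had no common order.

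The median of other abundant genes, with the 100 highest in BR left out, was not lower in these libraries. The other 1927 genes with 20 FPKM or more in both RR controls at 15 DAF, outside the 100 left out, had medians of 41.0, 59.5 and 50.3 FPKM in Fe replicates 1, 2 and 3, beside 40.3 and 38.3 in the controls. At 20 DAF their medians were 60.2 to 67.9 FPKM over the 6 RR libraries. The 31 storage protein genes in the table, found by short name, summed to 136168 and 183304 FPKM in the controls at 15 DAF. Their sums were 156450, 44755 and 48247 in Fe replicates 1, 2 and 3. FPKM is relative to the size of the library, so the levels of such sets are not independent of each other. Of the 1965 genes with the 38 included, 24 were below 5 FPKM in Fe replicate 2 and 26 in Fe replicate 3, and 14 and 20 of these were among the 38. The rule used the control libraries alone, but the 38 were chosen for a large control drop, so these counts are a description.

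**Figure D2:**
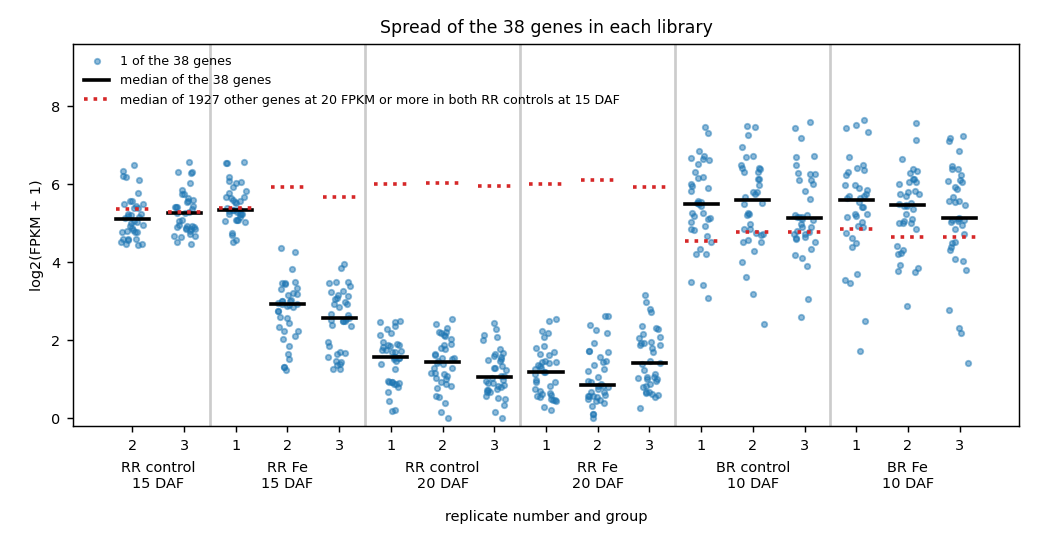
Values of the 38 genes in each library as log2(FPKM + 1) (points), their median (black bars), and the median of the 1927 other genes with at least 20 FPKM in both RR controls at 15 DAF (dotted bars). In RR Fe replicates 2 and 3 the median of the 38 genes is 6.54 and 4.87 FPKM, between those of the control stages, while the median of the other genes is 59.5 and 50.3 FPKM.

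Of the summed marker lists, that of the starchy endosperm alone was below both controls of the day in Fe replicates 2 and 3 at 15 DAF. The 10 starchy endosperm markers (glutelins, the granule-bound starch synthase OsGBSS1, OsISA1 and the transcription factor OsNF-YB1) summed to 71429 and 108974 FPKM in the RR controls at 15 DAF. Their sum was 80905 in Fe replicate 1, 14612 in Fe replicate 2 and 14737 in Fe replicate 3. At 20 DAF it was 2538 to 10504 in the controls and 1816 to 5170 under Fe. In Fe replicates 2 and 3, 9 of the 10 were below both controls of the day. The other one, OsNF-YB1 (LOC4330587), was above them, with 66.2 and 18.6 FPKM beside 6.25 and 9.55 in the controls. None of the 10 was at 0 in all libraries of a group.

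The 11 aleurone and embryo markers (oleosin OLE18, LEA proteins, dehydrins and the regulator OsVP1) summed to 7076 and 7172 FPKM in the RR controls at 15 DAF. They summed to 6657, 8434 and 18699 in Fe replicates 1, 2 and 3 and to 11750 to 18296 over the 6 libraries at 20 DAF. Of the 11 markers, 4 were below both controls of the day and 4 above both in Fe replicate 2. In Fe replicate 1 it was 4 below and 1 above, and in Fe replicate 3 it was 0 below and 8 above. In BR their sum was 266 to 2349 FPKM. The 7 green tissue markers summed to 7.44 to 21.6 FPKM in RR at 15 DAF. At 20 DAF they summed to 298 in control replicate 2, 141 in Fe replicate 2 and 34.3 to 37.9 in the other libraries. PSAG, PSAH and PSBW were above both controls of 15 DAF in every library at 20 DAF. In control replicate 1 at 20 DAF, RBCS1, RBCS-C, CAB1R and CAB2R were at 0.0492 to 0.268 FPKM, below both controls of 15 DAF. These genes were above both in control replicate 2 at 20 DAF. OsANS2, an enzyme gene of anthocyanin synthesis, was at 0.0140 FPKM or less in every RR library. The 4 sugar unloading genes (OsSWEET11, OsSWEET15, OsSUT1 and GIF1) summed to 31.2 and 75 FPKM in the RR controls at 15 DAF and to 113, 104 and 115 in the Fe replicates. In Fe replicates 2 and 3, OsSUT1 alone made up 102 and 113 FPKM of the sum. OsSWEET11 had 6.33 and 9.90 FPKM in those controls and 65.6, 0.776 and 0.935 in Fe replicates 1, 2 and 3. In each of Fe replicates 2 and 3, 1 of the 4 genes was below both controls and 1 above. The part of tissue composition in the levels of the 38 genes was not tested.

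The stage change was next read in Fe libraries, which did not enter the rule. The genes were chosen for a drop between the same stages in the controls, so a drop under Fe was favoured by the choice. The counts below and the shares of all genes beside them are therefore a description. All 38 genes were lower at 20 DAF than at 15 DAF in the Fe libraries. The log2 change had a median of -2.29 and a range of -3.83 to -0.91, beside a median of 0.38 for all 19774 genes tested. Single genes were tested with limma on log2(FPKM + 1), and a gene was called where its fold change was 1.5 or more and its adjusted p below 0.01. Only 1 of the 38 was called lower, beside a background of 0.162% of all genes called lower, and 37 were not called. At an adjusted p below 0.05 the number was 33 of 38, beside a background of 2.27%. Libraries of the 2 Fe groups did not overlap for 35 genes, all lower at 20 DAF, beside a background of 9.05% of all genes.

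The called gene was LOC4344219, with 38.6, 10.1 and 6.63 FPKM in the Fe replicates at 15 DAF and 1.57, 0.459 and 2.77 at 20 DAF (log2 change -2.63 with a standard error of 0.48 and an adjusted p of 0.00844 from limma). It was named for its call, after its values were seen. The call was lost with a pseudocount of 0.1 (adjusted p = 0.0104 from limma), with no filter (0.0132), with a filter at 5 FPKM (0.0105) and with only the groups compared (0.0271). With the replicate number as a block it was lost as well (0.0112), as it was without RR Fe replicate 1 (0.0777) or 2 (0.0259) at 20 DAF and without Fe replicate 2 (0.0176) or 3 (0.0593) at 15 DAF. ROMT-17 had the largest fitted difference, from 32.6, 13.2 and 14.6 FPKM to 0.219, 0.0673 and 0.988 (log2 change -3.83, adjusted p = 0.0110 from limma). It was called with a pseudocount of 0.1 (adjusted p = 0.00741 from limma) and with only the groups compared (0.00324). Fe replicates 2 and 3 kept more of ROMT-17 than of most of the 38 genes, and no library of one stage reached those of the other.

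LOC4329755 went from 93.7, 9.01 and 5.20 FPKM to 0.629, 0.249 and 0.942 (log2 change -3.51, adjusted p = 0.0103 from limma). LOC4338800 went from 91.9, 4.89 and 5.40 FPKM to 0.680, 0.0701 and 1.02 (log2 change -3.30, adjusted p = 0.0106 from limma). The actin gene ACT2 went from 92.5, 4.42 and 4.18 FPKM to 0.889, 0.388 and 0.756 (log2 change -3.05, adjusted p = 0.0284 from limma). In these 3 genes Fe replicate 1 at 15 DAF stood more than 10 times above the other Fe replicates of that day.

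CslF6, the glucan synthase gene, had 45.5, 5.00 and 1.74 FPKM under Fe at 15 DAF and 1.20, 0.893 and 1.01 at 20 DAF (log2 change -2.17, adjusted p = 0.0404 from limma). The cystatin gene OC-V had 55.7, 8.20 and 9.95 FPKM at 15 DAF and 2.61, 5.19 and 2.23 at 20 DAF (log2 change -2.10, adjusted p = 0.0303 from limma). Both sets of libraries were apart from each other, but neither gene was called. LOC4325838 had the smallest difference, from 44.7, 6.78 and 4.62 FPKM to 4.62, 5.13 and 7.83 (log2 change -0.91, adjusted p = 0.260 from limma), and its libraries overlapped.

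The number called varied with the libraries left out. With every library, 119 of all genes were called. Without Fe replicates 2 and 3 at 15 DAF all 38 genes were called lower among 4637 genes called in all. Their median log2 change was then -4.12 beside 0.72 for all genes, and the single remaining library was assumed to vary like the other groups. Without Fe replicate 1 at 15 DAF the number was 5 among 240, and LOC4325838 then had a change of 0.024. Without RR Fe replicate 3 at 20 DAF it was 18 among 1206, and without RR Fe replicate 1 or 2 at 20 DAF, or Fe replicate 2 or 3 at 15 DAF, it was 0.

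**Figure D3:**
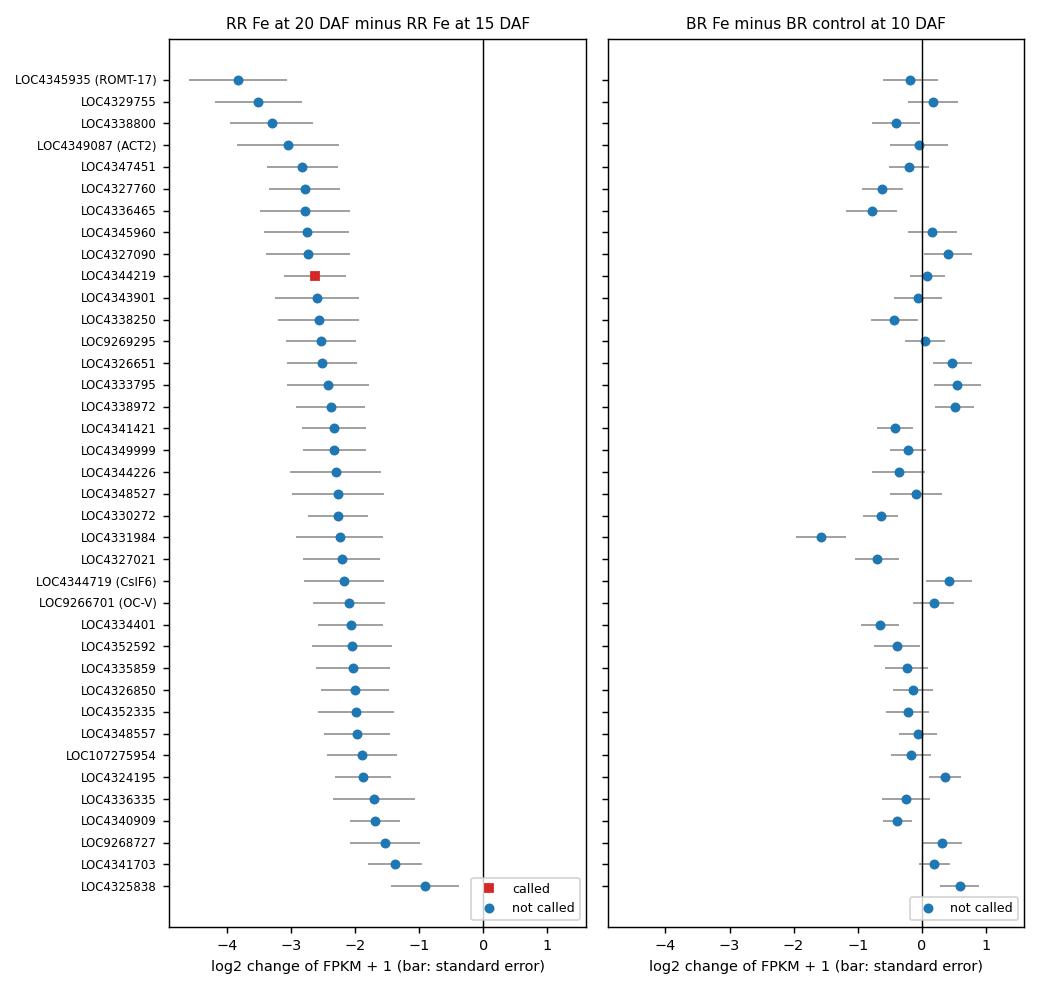
Log2 change of each of the 38 genes with its standard error (bars) for RR Fe at 20 DAF minus RR Fe at 15 DAF (left) and BR Fe minus BR control at 10 DAF (right), from limma. All 38 points lie below 0 on the left, with 1 gene (LOC4344219) called, and on the right 14 lie above 0, 24 below 0 and none is called.

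The thresholds of the rule were also set to the Fe libraries. The limits were at least 20 FPKM in Fe replicate 1 at 15 DAF and under 5 in all 3 Fe libraries at 20 DAF. With the genes most abundant in BR controls left out as in the rule, 111 genes were found. They held 33 of the 38 genes, which is 29.7% of the 111 and 86.8% of the 38. With Fe replicate 2 in place of replicate 1, 34 genes were found, and with Fe replicate 3 it was 13. Neither list held any of the 38. The 38 were chosen by the same limits in the controls, so these overlaps are a description.

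At 20 DAF the 38 genes stayed low under Fe. Their medians were 1.26, 0.804 and 1.66 FPKM in the 3 Fe libraries, and 33 genes were below 5 FPKM in all 6 libraries of that day. The remaining 5 reached 5 FPKM in at least 1 Fe library. These were LOC4325838 (4.62, 5.13 and 7.83 FPKM in the Fe replicates), LOC4341703 (2.07, 4.19 and 6.86), LOC4338972 (4.79, 2.21 and 6.0), LOC107275954 (3.57, 2.32 and 5.64) and OC-V (2.61, 5.19 and 2.23). Since the controls of that day had to be below 5 FPKM to be chosen, values above it can appear only under Fe, and nothing is read from their number.

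Between Fe and control at 20 DAF no gene of the 38 was called with limma, beside 0.0152% of all genes, and 1 was higher at an unadjusted p below 0.05, beside 2.56%. That gene was LOC4325838, with a log2 change of 1.02 (adjusted p = 0.918 from limma). It had 1.77, 3.64 and 1.86 FPKM in the controls, all below its Fe libraries. LOC4336335 was also higher in every Fe library, beside 5.15% of all genes, and LOC4341421 and CslF6 were lower in every one, beside 3.75%. The median log2 change of the 38 was -0.16, with 16 higher and 22 lower.

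At 15 DAF the Fe libraries were lower than the controls on average for all 38 genes, with a median log2 change of -1.71 beside 0.29 for all genes. No gene was called with limma, beside 0% of all genes, although 28 were lower at an unadjusted p below 0.05, beside 1.59% of all genes. Adjusted p ran from 0.595 to 0.765 from limma. Only LOC4338250 and LOC4341703 were below both controls in all 3 Fe libraries, beside 3.05% of all genes. LOC4338250 had 66.7, 5.68 and 7.49 FPKM in Fe grains and 71.8 and 78.5 in control grains. Without Fe replicate 1 the number called was 29, among 716 genes called in all, and without Fe replicates 2 and 3 it was 0, with a median of 0.22 in place of -1.71. Control libraries of both days chose the genes, so both Fe comparisons in RR are descriptions.

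In black rice at 10 DAF most of the 38 genes were at the level of red rice at 15 DAF or above it. Their medians were 44.2, 47.5 and 33.9 FPKM in the BR controls and 47.0, 42.8 and 33.7 in the BR Fe libraries. The 1927 other genes had lower medians in BR, of 22.4 to 27.9 FPKM, than in the RR controls at 15 DAF. Of the 38, 30 were at 20 FPKM or more in all 3 BR controls, 25 in all 6 BR libraries, and 3 had any BR value below 5. The ratio of the BR control mean to the RR control mean at 15 DAF had a median of 1.20 and ran from 0.162 to 3.65. BR means were higher for 24 genes and lower for 14. The BR controls were above both RR controls in every library for 14 genes, beside 12.3% of all genes, and below them for 9, beside 49.8%. Both control groups entered the rule, so these ratios and counts are a description and nothing is read from the shares.

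The highest in BR control grains were LOC4338800 with 182 ± 9.40 FPKM (SD, n = 3), LOC4338250 with 162 ± 10.2, LOC4343901 with 133 ± 41.0 and LOC4329755 with 110 ± 11. The spread of LOC4343901 (115, 180 and 104 FPKM) overlapped with that of both its neighbours in this order. At the low end were LOC4327021 with 5.61 ± 1.65 FPKM, ACT2 with 9.65 ± 2.10, LOC107275954 with 10.5 ± 3.01 and LOC4352592 with 17.4 ± 1.09. ACT2 had 10.3, 11.4 and 7.31 FPKM in BR controls beside 72.6 and 46.7 in RR controls at 15 DAF, the lowest ratio of the 38. LOC4343901 had the highest ratio, with 42.7 and 30.2 FPKM in those RR controls.

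**Figure D4:**
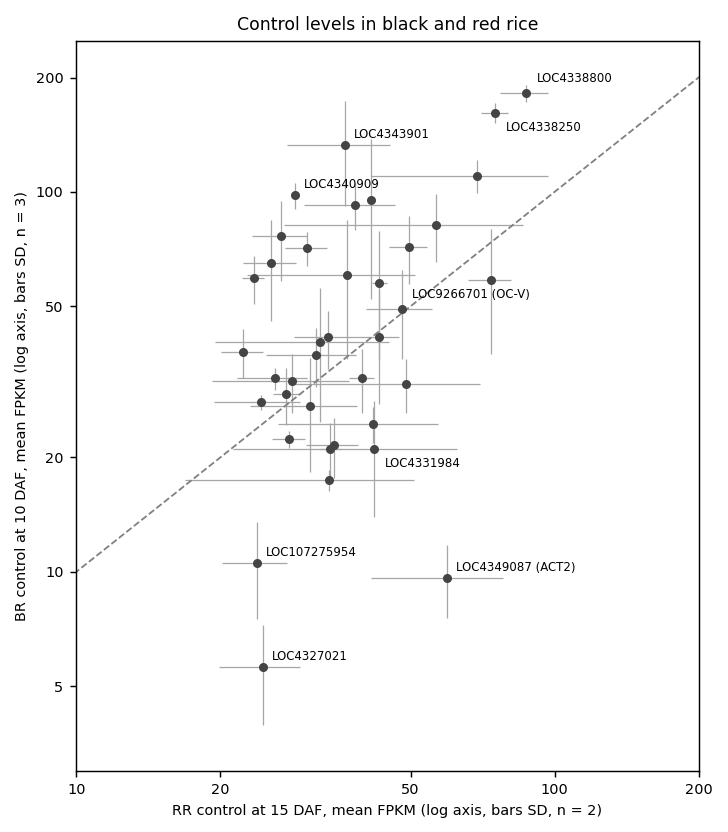
Mean FPKM of each of the 38 genes in BR control grains at 10 DAF (vertical, n = 3) against RR control grains at 15 DAF (horizontal, n = 2) on log axes, with the SD as bars and equality as a dashed line. LOC4327021 (5.61 FPKM in BR), ACT2 (9.65) and LOC107275954 (10.5) lie farthest below the line, and 24 genes lie above it.

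Set against the Fe libraries of RR at 20 DAF, the BR Fe libraries were higher for all 38 genes, with a median log2 change of 4.02 beside -1.08 for all genes. Of the 38, 36 were called higher, beside a background of 11.8% called higher. For 37 the libraries did not overlap, beside 15.2% of all genes. Neither group entered the limits of 20 and 5 FPKM, but the RR controls of the same day did, so low RR Fe values were favoured by the choice.

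LOC4338800 had 161, 140 and 115 FPKM with Fe in BR (log2 change 6.49, adjusted p = 2.12e-09 from limma). LOC4333795 had 172, 98.7 and 144 FPKM in BR Fe grains and 0.407, 0.824 and 0.548 in RR Fe grains at 20 DAF (log2 change 6.42). Among the named genes, ROMT-17 differed by 4.66, CslF6 by 4.18, OC-V by 3.75 and ACT2 by 2.62 on the log2 scale, and all 4 were called. ROMT-17 varied widely in BR Fe grains, with 58.7, 12.7 and 49.8 FPKM, and remained above all RR libraries at 20 DAF.

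The exceptions were LOC4327021 and LOC107275954. LOC4327021 had 2.27, 6.37 and 1.64 FPKM in BR Fe grains and 1.42, 1.72 and 4.15 in RR Fe grains at 20 DAF (log2 change 0.30, adjusted p = 0.521 from limma). It was low in BR and in RR at 20 DAF, with overlapping libraries, and high in RR at 15 DAF in the controls (21.3 and 27.9 FPKM) and Fe replicate 1 (39.3). LOC107275954 had 10.1, 12.5 and 5.80 FPKM in BR Fe grains, above its RR Fe libraries at 20 DAF, with a log2 change of 1.11 (adjusted p = 0.0138 from limma). After centring on library medians its change was 2.36 (adjusted p = 5.53e-05 from limma) and after quantile normalization 2.25 (4.51e-05), and it was called in both. It was also called without BR Fe replicate 3 (1.39, adjusted p = 0.00492 from limma) and without RR Fe replicate 3 at 20 DAF (1.37, 0.00345).

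Against RR Fe at 15 DAF, 22 genes were called higher in BR Fe grains, beside 5.04% of all genes, and 1 lower, beside 27.8%. The 38 genes were chosen for a drop between the stages in the RR controls. By their medians, RR Fe replicates 2 and 3 at 15 DAF lay part of the way along that drop. The counts of this comparison and the shares beside them are therefore a description. The median log2 change of the 38 genes was 1.68, against -0.70 over all genes. LOC4333795 differed by 3.99 (adjusted p = 5.48e-05 from limma), LOC4348557 by 3.18 and LOC4340909 by 2.40, and LOC4327021 was the gene called lower (-1.91, adjusted p = 0.00928 from limma). That call was lost after centring on library medians (-1.04, adjusted p = 0.191 from limma), after quantile normalization (-1.04, 0.186), with no filter (0.0199) and with only the groups compared (0.0312). With the replicate number as a block it was lost too (0.0111), as it was without BR Fe replicate 1 (0.0211) or 3 (0.0255) and without RR Fe replicate 1 (0.0260), 2 (0.0117) or 3 (0.0716) at 15 DAF. The number of calls varied with the libraries left out here too. Without Fe replicates 2 and 3 only 1 gene was called higher and 3 lower, with a median of -0.02, and LOC4333795 and LOC4348557 were not called (adjusted p = 0.0102 and 0.0103 from limma). The 23 calls in both directions stood beside a background of 32.9%. Without Fe replicate 1 the number called was 33, without Fe replicate 2 it was 6, and without Fe replicate 3 it was 3. It was 13 without BR Fe replicate 1.

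Foliar Fe in black rice left no called change among the 38 genes. None was called with limma, beside 0.713% of all genes, and the median log2 change was -0.15 beside 0.01. At an unadjusted p below 0.05 there were 3 lower, beside 6.17% of all genes, and 0 higher, beside 6.66%, so the lower share was near the background. The one gene with an adjusted p below 0.05, beside 1.97% of all genes, was LOC4331984. It had 19.3, 15.0 and 29 FPKM in the BR controls and 4.66, 13.5 and 3.52 under Fe (log2 change -1.57 with a standard error of 0.39 and an adjusted p of 0.0418 from limma). All Fe libraries were below all controls, and Fe replicate 2 came close to the lowest control. Without Fe replicate 2 the gene was called (log2 change -2.08, adjusted p = 6.85e-04 from limma). With other processing its adjusted p from limma was above 0.05. It was 0.140 with a pseudocount of 0.1, 0.104 with no filter and 0.0579 with a filter at 5 FPKM. Without the variance factor it was 0.463, after median centring 0.110, after quantile normalization 0.146 and with the replicate block 0.111.

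LOC4330272 had 71.9, 78.2 and 63.5 FPKM in the BR controls and 50.5, 52.6 and 34.2 under Fe (log2 change -0.65, adjusted p = 0.288 from limma). LOC4334401 had 89.8, 83.5 and 55.9 FPKM in the controls and 49.0, 50.4 and 42.7 under Fe (log2 change -0.65, adjusted p = 0.351 from limma). In both the groups did not overlap, as for 8 of the 38 genes with lower Fe libraries, beside 6.11% of all genes.

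LOC4325838 had 24.3, 21.7 and 17.2 FPKM in the BR controls and 41.2, 31.0 and 25.5 under Fe (log2 change 0.59, adjusted p = 0.441 from limma). LOC4326651 had 27.5, 22.7 and 23.1 FPKM in the controls and 31.8, 39.8 and 31.8 under Fe (log2 change 0.48, adjusted p = 0.609 from limma). These were the only 2 of the 38 with every Fe library above every control in BR, beside 8.29% of all genes. LOC4338972 had a log2 change of 0.51 (adjusted p = 0.555 from limma), with overlapping libraries. LOC4325838 was above its controls in every Fe library at 20 DAF in RR as well, and neither change was called. In RR at 15 DAF it had 35.3 and 32.7 FPKM in the controls and 44.7, 6.78 and 4.62 in Fe replicates 1, 2 and 3.

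The 38 genes varied less between BR replicates than between the Fe replicates of RR at 15 DAF. The median coefficient of variation was 17.8% in the BR controls and 20.3% in the BR Fe libraries, beside 15.3% in the RR controls at 15 DAF and 119% in the RR Fe libraries of that day. At 20 DAF it was 41.5% in the controls and 43.6% under Fe, at values of a few FPKM. LOC4331984 varied most among BR Fe libraries, with 75.3%.

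Gene lists made by short name give values of other genes beside those of the 38 under Fe in RR. Of 10 starch synthesis genes, 0 were called between 15 and 20 DAF with limma. At an unadjusted p below 0.05, 6 were lower, beside 6.31% of all genes, and 1 was higher, beside 22.9%. The median log2 change of the 10 was -1.82, against the 0.38 of all genes. Of 24 storage protein genes 1 was called lower, beside 0.162% of all genes. In that list 19 had a lower mean and the median was -1.62. Of 68 cell wall and glycoside hydrolase genes, CslF6 among them, 1 was called lower, beside the same 0.162%, and the median was -0.32. The 12 seed maturation genes, active in embryo and aleurone, had a median change of 0.71, with 10 higher, 0 called with limma and 0 at an unadjusted p below 0.05. Of 53 heat shock genes 29 were higher at that p, beside 22.9% of all genes, with 0 called and a median of 1.10. All 10 photosynthesis genes were higher, with a median of 1.15 and 0 called. Medians of the remaining lists ran from -0.74 (nitrogen and amino acid metabolism) to 0.26 (iron and metal handling). Between BR Fe and RR Fe at 20 DAF, 7 starch synthesis genes were called higher in BR and 2 lower, and of the storage protein genes 15 were called higher and 5 lower. Of all genes, 11.8% were called higher in that comparison and 57.5% lower. By short name CslF6 was the only one of the 38 on any list, so these values describe other genes.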

How the data were processed

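Libraries of poly(A) mRNA from rice grain were sequenced by the authors on an Illumina instrument. The deposited FPKM values were made by the authors with HISAT2 on IRGSP-1.0 and StringTie, and versions and the counting rule are not given in the sources used here. FPKM holds no counts, a search of low values for single-read steps gave no depth, and precision rests on the replicates.

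The 38 genes, the gene lists (matched by short name) and the tests were chosen with earlier results of these data known. Values were tested as log2(FPKM + 1) with limma 3.58.1 in R 4.3.3, which understates changes of low genes. The 19774 genes that reached 1 FPKM in 2 or more libraries entered 1 model of 6 group means over all 17 libraries. Each group had its own variance factor (arrayWeights), and eBayes allowed for a trend. Two-sided p-values were adjusted after Benjamini-Hochberg over all 19774 genes. The adjusted p of 0.01 and the fold of 1.5 follow the study's methods, whose DESeq2 test needs counts and was not run. The script was tested on simulated data. Alternatives were a pseudocount of 0.1, no filter or one at 5 FPKM, only the groups compared, no variance factor, median centring, quantile normalization, a replicate block, 2 other calling thresholds, the omission of each library, and RR Fe replicates 2 and 3 at 15 DAF left out together.

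All 38 genes passed the filter. Genes named are the 10 highest in the RR controls at 15 DAF, those on a list, the 3 with the smallest p in each direction under Fe in BR, the 4 highest and 4 lowest in BR control grains, the 4 highest in RR Fe grains at 20 DAF and the 3 on each side of each limit. Other genes were named after their values were seen. Gene names came from a RefSeq table of another assembly (ASM3414082v1), so no coordinates and no sequences are given, and promoters were not analysed here.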

Additional observations from a re-analysis of the deposited data

How the results depend on the processing

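The number of the 38 genes called between RR Fe at 15 and 20 DAF depended most on the processing. It was 1 as reported, 3 with a pseudocount of 0.1, 0 with no filter and 0 with a filter at 5 FPKM, 23 without the variance factor, 8 after centring on library medians and 10 after quantile normalization. It was 33 at an adjusted p below 0.05 with no fold limit, 0 to 18 with 1 library left out, and 38 with RR Fe replicates 2 and 3 at 15 DAF left out together. All 38 changes were negative in the fit as reported. The change of LOC4325838 ran from -1.49 to 0.024 with 1 library left out, the latter without RR Fe replicate 1 at 15 DAF. With the replicate number as a block the count was 0, and 20 rather than 23 for BR Fe against RR Fe at 15 DAF. Residuals of same-numbered Fe and control libraries correlated at -0.36 to 0.23, so the numbers were not taken to pair the samples.

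For BR Fe against RR Fe at 15 DAF, 23 genes were called as reported (22 higher, 1 lower). The number was 30, all higher, after median centring and after quantile normalization (median change 2.54 and 2.47, against 1.68). It was 12 with no filter, 9 with only those groups fitted, 3 to 33 with 1 library left out and 4 with RR Fe replicates 2 and 3 left out. For BR Fe against RR Fe at 20 DAF it was 36, and 35 to 37 under every alternative run, although the change of LOC4327021 ran from -0.14 (without BR Fe replicate 2) to 0.64 with 1 library left out. Under Fe in BR the count of 0 became 1 at an adjusted p below 0.05, and 0 to 1 with 1 library left out. Under Fe in RR at 15 DAF it was 0, and 0 to 29 with 1 library left out. At 20 DAF it was 0 under every alternative run. With limits of 40 and 5 FPKM the rule gave 9 genes, and with 20 and 2 FPKM 15. The causes of these shifts were not tested. Read depth is unknown, so the precision of values below 1 FPKM is unknown too.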
